A study of Mus musculus with 6 samples.

Results

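The genes examined here are those with which a photoreceptor ends its response to light and restores its sensitivity: Grk1, Sag, Rcvrn, Rgs9, Gnb5, Pdc, Gucy2e, Gucy2f, Guca1a and Guca1b. They were taken by symbol, and all 10 were found among the 22692 gene symbols of each table. The samples were whole eyes from mice of the inbred laboratory strain C57BL/6J, with no other genotype or treatment named. One group was collected 1.5 h and the other 9.0 h after light onset, with 3 libraries each, so the comparison asks how the eye's transcripts differ between early and late in the light phase. Every library came from RNA pooled from 5 females aged 4 weeks, so differences between single mice are not visible. Nothing states that the pools of 1 time held different mice, and p-values then measure only how far these libraries differ, in part perhaps for technical reasons.

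In darkness, cyclic GMP holds channels in the outer segment open, and light closes them through a visual pigment, transducin and a phosphodiesterase. To end the response, a receptor kinase phosphorylates the activated pigment and arrestin caps it, while a GTPase-activating complex switches transducin off. Calcium falls when the channels close, and calcium sensor proteins then speed the resynthesis of cyclic GMP and release the receptor kinase from inhibition. These proteins act in rods and cones of the retina, which is only a part of the whole eye measured here. Whether other cells of the eye also held RNA of these genes, such as Gnb5, was not tested.

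Levels are in RPKM, reads scaled by gene length and by the reads of the library, so that genes can be compared with each other. The reads behind a library, estimated from the smallest step in its values, were between 12650000 and 31820000, and 1.5 h replicates 2 and 3 were the shallowest. Rod markers were abundant, with Gnat1, the rod transducin alpha subunit, at 3761 ± 553 RPKM at 1.5 h and 2915 ± 284 at 9.0 h (SD, n = 3 each). Some libraries stood apart. In 1.5 h replicate 1, the mean deviation of markers from their own average on the log2(RPKM + 0.1) scale was −0.67 for lens, −0.75 for muscle and −0.62 for cornea and sclera. In 1.5 h replicate 3, all 4 Y-linked genes looked at had reads although the pools are labelled female, at 1.59 RPKM in sum, and the other 5 libraries had them at 0. The same library had 367 RPKM of Beta-s, a globin gene of red blood cells, against 41.9 to 118 in the others. Fold changes of the 10 genes without each of these 2 libraries are given after the single genes.

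Upstream sequence is shown for 4 of the genes: the pair of retinal guanylate cyclases, of which Gucy2f had the largest difference between the times among the 10 genes, an activator of these cyclases, and the arrestin gene. RefSeq windows on GRCm38.p6 reach from 250 bases before to 50 bases after each start, and 8 of the 10 genes had one. Rcvrn and Guca1b had none. Capitals mark TAATCC or its reverse complement GGATTA, the core bound by CRX, a homeodomain factor of photoreceptors.
Gucy2f (chrX:142196887-142197186, strand -): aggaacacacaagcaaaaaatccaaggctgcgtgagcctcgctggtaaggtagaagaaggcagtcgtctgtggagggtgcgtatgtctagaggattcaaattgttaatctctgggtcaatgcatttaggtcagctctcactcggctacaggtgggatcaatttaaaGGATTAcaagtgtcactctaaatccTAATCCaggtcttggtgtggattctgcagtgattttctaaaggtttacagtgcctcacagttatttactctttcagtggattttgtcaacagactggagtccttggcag
Gucy2e (chr11:69236973-69237272, strand -): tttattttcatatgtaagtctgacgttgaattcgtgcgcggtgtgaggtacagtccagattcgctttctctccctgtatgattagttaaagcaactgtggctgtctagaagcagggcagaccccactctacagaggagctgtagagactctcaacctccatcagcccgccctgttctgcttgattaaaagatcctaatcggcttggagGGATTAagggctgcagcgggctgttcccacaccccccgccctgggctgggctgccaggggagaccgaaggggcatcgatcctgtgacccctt
Guca1a (chr17:47400557-47400856, strand -): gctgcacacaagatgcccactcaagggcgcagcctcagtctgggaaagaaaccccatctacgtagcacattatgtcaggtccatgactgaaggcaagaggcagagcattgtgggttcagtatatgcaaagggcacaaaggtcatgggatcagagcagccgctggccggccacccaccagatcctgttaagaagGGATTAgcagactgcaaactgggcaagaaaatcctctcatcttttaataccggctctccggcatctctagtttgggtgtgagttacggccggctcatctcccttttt
Sag (chr1:87803430-87803729, strand +): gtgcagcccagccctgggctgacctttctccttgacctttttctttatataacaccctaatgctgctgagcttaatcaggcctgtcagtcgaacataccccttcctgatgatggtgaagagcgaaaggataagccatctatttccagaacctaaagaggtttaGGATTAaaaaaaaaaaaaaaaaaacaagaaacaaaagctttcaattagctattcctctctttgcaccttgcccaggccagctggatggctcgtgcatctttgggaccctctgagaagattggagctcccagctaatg

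TAATCC was found, on either strand, in the windows of 5 of 8 genes, namely Sag, Gnb5, Guca1a, Gucy2e and Gucy2f, and in 7.06% of all 32851 RefSeq windows of this length. Gucy2f was the only one of the 8 with more than 1 match, beginning 84 and 59 bases before the start. The matches of Gucy2e, Guca1a and Sag began 42, 57 and 87 bases before it. TGCTGA, part of the site of the rod factor NRL, was in the windows of Sag, Grk1 and Rgs9, against 19.5% of all windows. CACGTG, the E-box bound by clock activators, was in none of the 8, against 7.15% of all windows. No match of one motif overlapped that of another. A match describes letters in the reference genome and was not measured as binding.

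All 10 genes passed the filter of at least 1 RPKM in 3 or more libraries. Their mean over the 6 libraries ranged from 989 RPKM for Pdc to 7.98 for Gucy2f. Between them stood Sag at 918, Rcvrn at 718, Guca1b at 491, Guca1a at 470.2, Gnb5 at 163, Grk1 at 98.6, Rgs9 at 69.4 and Gucy2e at 30.3. The RNAs of phosducin, arrestin, recoverin and the cyclase activators thus stood above those of the kinase, the transducin-inactivating complex and the cyclases. Pdc exceeded Sag in 3 of 6 libraries and Guca1b exceeded Guca1a in 4 of 6, so the order within these 2 pairs of neighbours lay inside the spread. Sag over Rcvrn and Grk1 over Rgs9 held in 6 of 6 libraries although their ranges overlapped, and the other neighbours had separate ranges.

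**Figure D1:**
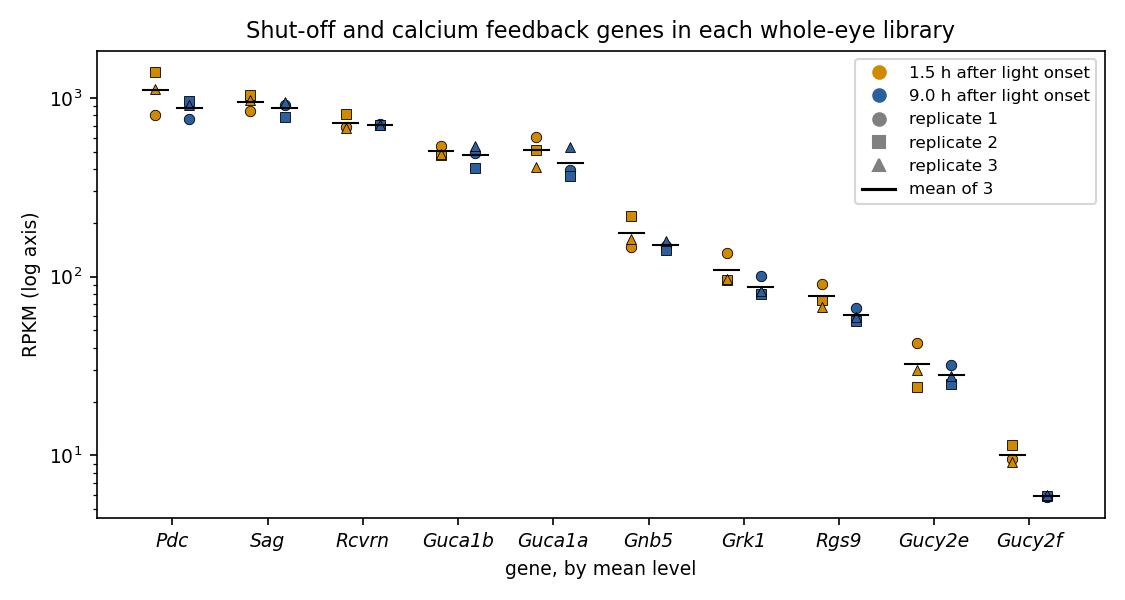
Level of each gene in every whole-eye library, in RPKM on a log axis, with genes ordered by mean level, colours for the 2 times, symbols for the replicate numbers and bars for the mean of 3 libraries. The 3 libraries of 9.0 h lie below all 3 of 1.5 h for Gucy2f and Rgs9, and overlap with them for the other genes.

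All 10 genes had a lower mean at 9.0 h, but none passed the test. With limma across all 13490 tested genes, no member had a Benjamini-Hochberg adjusted p of 0.05 or less, against 30 genes (0.222%) over all tested. At an unadjusted p of 0.05, 2 members passed, Gucy2f and Rgs9, both lower, against 4.58% of tested genes in that direction. The same 2 had no overlap between the times, against 8.41% of tested genes lower without overlap. The median log2 fold change of the 10, 9.0 h minus 1.5 h, was −0.22, where that of all tested genes was −0.003 and 50.6% of tested genes lay below 0. Fold changes are of RPKM + 0.1. In whole eyes, fewer photoreceptors and less of these RNAs per photoreceptor cannot be told apart.

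**Figure D2:**
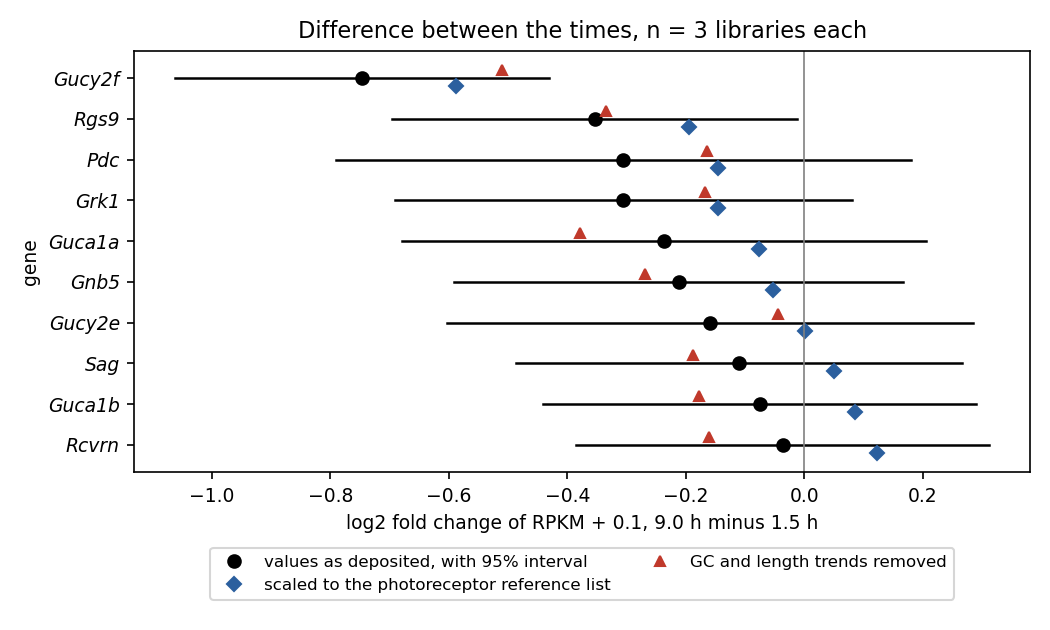
Log2 fold change of each gene, 9.0 h minus 1.5 h, with circles and lines for the limma estimate and its 95% interval on the values as deposited, diamonds after scaling to photoreceptor reference genes and triangles after removing trends with GC content and length. The intervals of Gucy2f and Rgs9 lie below 0, and the diamonds of Rcvrn, Guca1b, Sag and Gucy2e reach 0 or above.

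Gucy2f, which encodes one of the pair of retinal guanylate cyclases that remake cyclic GMP, had 9.53, 11.4 and 9.23 RPKM in the 1.5 h libraries, here and below in the order of their replicate numbers. At 9.0 h it had 5.88, 5.91 and 5.98 RPKM. All 3 later libraries lay below all 3 earlier ones. The mean went from 10.0 ± 1.17 to 5.92 ± 0.0519 RPKM (SD, n = 3 each), a ratio of 0.590, with a log2 fold change of −0.75 ± 0.14 (SE) and limma adjusted p = 0.0772. The 95% interval of the fold ran from 0.479 to 0.742. At its single annotated length of 8122 nt these values stand for about 970 to 2244 reads per library. Without 1.5 h replicate 1, the library low in lens markers, the limma adjusted p was 0.00019 and the log2 fold change −0.78. That smaller set of libraries called 1219 genes in all, so its p-values are not on the same footing. Without 1.5 h replicate 3 the values were −0.80 and 0.189. Over the 14 alternative settings the log2 fold change of Gucy2f stayed between −0.80 and −0.51, and limma adjusted p between 0.00019 and 0.571.

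Gucy2e, which encodes the other retinal guanylate cyclase, had 42.6, 24.2 and 30.0 RPKM at 1.5 h and 32.2, 25.0 and 27.7 at 9.0 h. The lowest and the highest library were both at 1.5 h, so the times overlapped. The mean went from 32.3 ± 9.40 to 28.3 ± 3.64 RPKM, with a log2 fold change of −0.16 ± 0.20 (limma adjusted p = 0.822). Without 1.5 h replicate 1 it was 0.06, so that library set its direction. Within a library, the log2 ratio of Gucy2f to Gucy2e was −2.15, −1.08 and −1.69 at 1.5 h and −2.43, −2.06 and −2.19 at 9.0 h. As far as 2 RNAs are made in the same cells, their ratio does not move with the share of those cells in the eye. The difference of the means was −0.59, and 1.5 h replicate 1 lay inside the range of 9.0 h (exact permutation p = 0.2, two-sided, adjusted over 6 pairs 0.6). Without that library the difference was −0.84 and the times separated (exact permutation p = 0.1), and without 1.5 h replicate 2 it was −0.31 (exact permutation p = 0.4). With 3 libraries against 3 such a test cannot go below 0.1.

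Guca1a and Guca1b encode the guanylate cyclase activating proteins, calcium sensors that stimulate the cyclases when calcium is low. Guca1a had 603, 510.2 and 412 RPKM at 1.5 h and 396, 368 and 532 at 9.0 h. Guca1b had 542, 479 and 485 RPKM at 1.5 h and 492, 406 and 540.2 at 9.0 h. For Guca1a, 9.0 h replicate 3 lay within the range of 1.5 h, and for Guca1b replicates 1 and 3 did. The log2 fold changes were −0.24 ± 0.20 (limma adjusted p = 0.722) for Guca1a and −0.08 ± 0.16 (0.907) for Guca1b. The log2 ratio of Guca1b to Guca1a was 0 ± 0.21 at 1.5 h and 0.16 ± 0.15 at 9.0 h (SD), a difference within the spread (exact permutation p = 0.3, n = 3 each, adjusted 0.6).

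Among the genes that silence the activated pigment, Grk1, the receptor kinase, had 135, 96.1 and 97.2 RPKM at 1.5 h and 100.7, 79.8 and 83.1 at 9.0 h. The times overlapped only through 9.0 h replicate 1, which exceeded 2 of the earlier libraries. Its log2 fold change was −0.31 ± 0.17 (limma adjusted p = 0.565). Sag, rod arrestin, which binds the phosphorylated pigment, had 847, 1038 and 972 RPKM and then 915, 780.2 and 953, with a log2 fold change of −0.11 ± 0.17 (limma adjusted p = 0.86). Rcvrn, recoverin, which holds the receptor kinase inactive while calcium is high, had 688, 817 and 680.1 RPKM and then 719, 702 and 701. It was the most even of the 10 at 9.0 h after Gucy2f, with a coefficient of variation of 1.44% against 0.877%. Its log2 fold change was −0.04 ± 0.16 (limma adjusted p = 0.954), and the 95% interval of its fold, 0.766 to 1.24, leaves room for a change either way. For the 8 genes other than Gucy2f and Rgs9 these intervals spanned 1, and reached down to 0.578 (Pdc) and up to 1.24 (Rcvrn).

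Rgs9 encodes the GTPase-activating protein that switches transducin off. It had 91.6, 74.5 and 68.0 RPKM at 1.5 h and 66.7, 56.2 and 59.2 at 9.0 h, and every later library was below every earlier one. The margin was narrow, between 68.0 and 66.7 RPKM. The mean went from 78.0 ± 12.2 to 60.7 ± 5.41 RPKM, with a log2 fold change of −0.35 ± 0.15 (limma adjusted p = 0.434). Gnb5, the G protein beta subunit that forms a complex with Rgs9, had 146, 217 and 163 RPKM and then 149, 142 and 158, overlapping, with a log2 fold change of −0.21 ± 0.17 (limma adjusted p = 0.709). Gnb5 shares 248 exonic bases with Gm19531 on the opposite strand, and the strand setting of the counting is not given in the sources used here, so reads there could belong to either. No other transcript outside the 10 genes shared near-identical sequence with them. The log2 ratio of Rgs9 to Gnb5 was −1.16 ± 0.44 at 1.5 h and −1.30 ± 0.13 at 9.0 h (exact permutation p = 0.8, n = 3 each). Rgs9bp, the membrane anchor of this complex and no member here, had 76.1 ± 8.53 and 58.3 ± 5.34 RPKM without overlap (log2 fold change −0.38, limma adjusted p = 0.365), chosen for mention after its values were seen.

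Pdc, phosducin, binds the beta-gamma part of transducin and was the most abundant of the 10 on average. It had 798, 1398 and 1115 RPKM at 1.5 h and 760.0, 956 and 908 at 9.0 h. 1.5 h replicate 1 lay below 2 of the later libraries. The log2 fold change was −0.31 ± 0.22 (limma adjusted p = 0.665). Without 1.5 h replicate 1 it was −0.52 (limma adjusted p = 0.0481), and without 1.5 h replicate 2, the highest library, −0.12 (0.867). The fit without 1.5 h replicate 1 called 1219 genes in all, against 30 with all libraries, so its p-value is not on the same footing.

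Leaving out 1.5 h replicate 1, the library low in lens markers, moved most of these values. Grk1 went from −0.31 to −0.145, Guca1a from −0.24 to −0.105, Rgs9 from −0.35 to −0.23 and Guca1b from −0.08 to −0.02 on the log2 scale. Sag went from −0.11 to −0.19, Gnb5 from −0.21 to −0.33 and Rcvrn from −0.04 to −0.08. So Grk1, Guca1a, Rgs9 and Guca1b lay closer to 0 without it, and Sag, Gnb5 and Rcvrn farther. None of these 7 was called, with limma adjusted p between 0.205 and 0.963. With 1.5 h replicate 3 left out, Guca1a had −0.38, Grk1 −0.38, Rgs9 −0.45, Gnb5 −0.26, Pdc −0.28, Gucy2e −0.19, Guca1b −0.10, Sag −0.09 and Rcvrn −0.08, and no member was called. Leaving out 1.5 h replicate 2 gave −0.05 for Gnb5, −0.045 for Sag, −0.35 for Gucy2e and 0.05 for Rcvrn, and leaving out 9.0 h replicate 2 gave −0.02 for Sag, −0.13 for Guca1a, −0.07 for Gucy2e and 0.04 for Guca1b.

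The remaining ratios within a library did not separate the times either. The log2 ratio of Grk1 to Sag was −3.13 ± 0.42 at 1.5 h and −3.33 ± 0.17 at 9.0 h (exact permutation p = 0.7, n = 3 each). That of Rcvrn to Grk1, the inhibitor to its kinase, was 2.75 ± 0.37 and 3.02 ± 0.16 (exact permutation p = 0.3, n = 3 each). That of Pdc to Sag was 0.18 ± 0.26 and −0.02 ± 0.28 (exact permutation p = 0.5, n = 3 each). Adjusted over the 6 pairs, these p-values lay between 0.6 and 0.8. With 1.5 h replicate 1 left out the differences were 0.05 for Grk1 to Sag, 0.10 for Rgs9 to Gnb5, 0.07 for Rcvrn to Grk1, −0.33 for Pdc to Sag and 0.09 for Guca1b to Guca1a.

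**Figure D3:**
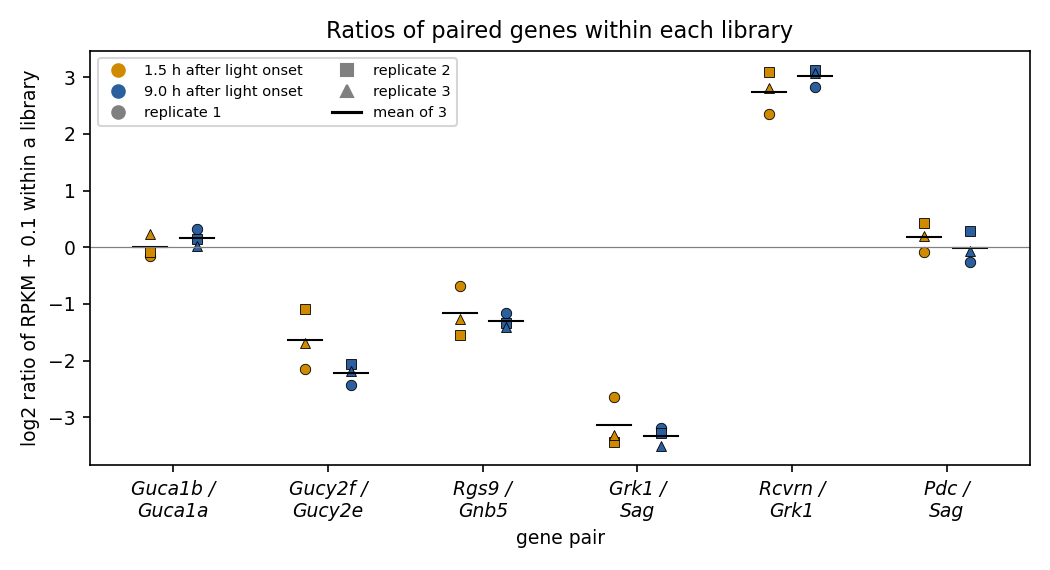
Log2 ratio of RPKM + 0.1 between 2 genes within each library, for 6 pairs, with colours for the times, symbols for the replicate numbers and bars for the mean of 3 libraries. The times overlap in every pair, and the spread at 1.5 h is the wider one in all pairs but Pdc to Sag.

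The genes did not vary as one block. In 1.5 h replicate 1, Gucy2e, Grk1, Rgs9 and Guca1a lay 0.52, 0.47, 0.42 and 0.38 above their own mean over the 6 libraries (log2 scale), while Pdc, Gnb5 and Sag lay at −0.28, −0.14 and −0.11. In 1.5 h replicate 2, Gucy2f, Pdc and Gnb5 stood highest, at 0.56, 0.53 and 0.44, and Gucy2e at −0.29. Over the 6 libraries Grk1 went with Rgs9 (Pearson r = 0.957) and Gucy2e (0.88), Gnb5 with Rcvrn (0.866) and Pdc (0.859), and Guca1a with Guca1b (0.795). Gucy2e and Pdc ran in opposite directions (−0.668). These are descriptions over 6 libraries that share their preparation. In 9.0 h replicate 2 all 10 genes were below their mean, and it is the library with the lowest sum over the 10, 3521 RPKM. The sum was 3903, 4665 and 4033 RPKM at 1.5 h and 3636 and 3969 in 9.0 h replicates 1 and 3. The RPKM of all genes summed to 393433, 484249 and 490387 at 1.5 h and 501906, 546836 and 541816 at 9.0 h. As a share of that, the 10 genes made up 0.992%, 0.963% and 0.822%, then 0.724%, 0.644% and 0.732%, without overlap. Such a share also moves with the RPKM of all other genes, and its cause was not tested.

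**Figure D4:**
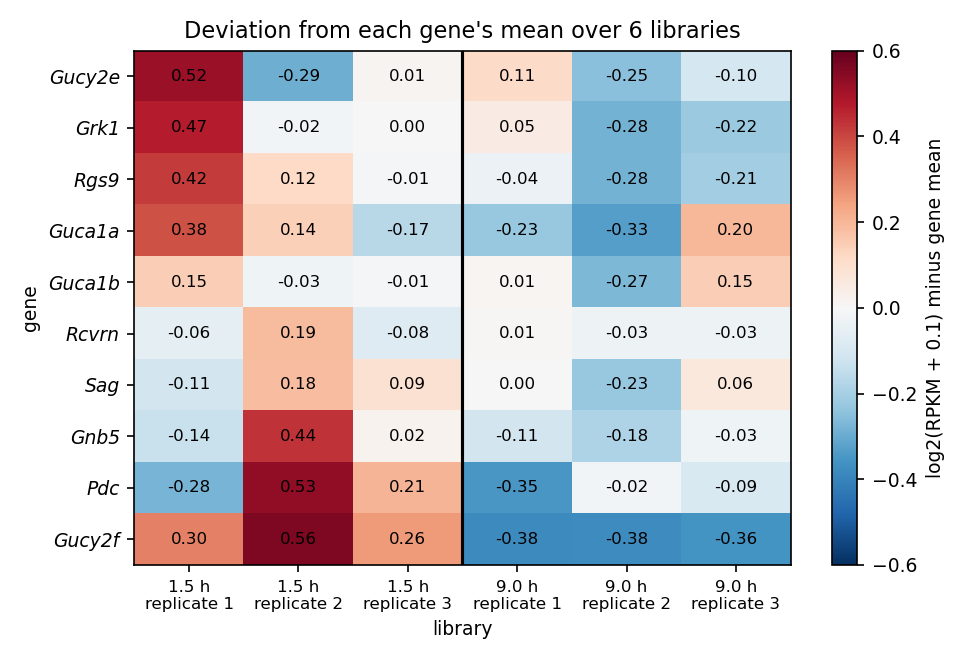
Deviation of each gene (rows) from its own mean over the 6 libraries (columns) on the log2(RPKM + 0.1) scale, red above and blue below, with a line between the times. 1.5 h replicate 1 holds the highest values of Gucy2e, Grk1, Rgs9 and Guca1a and a low one of Pdc, and Gucy2f alone is near −0.4 in all 3 libraries of 9.0 h.

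Transcript length and GC content went along with part of this spread. Across the 10 genes, the deviation in 9.0 h replicate 3 had r = −0.825 with log2 transcript length and 0.681 with GC content, and across 13382 tested genes −0.405 and 0.425. In 1.5 h replicate 3 the values were 0.584 and −0.831 over the 10 genes, and 0.189 and −0.197 over all. In 1.5 h replicate 2, the highest library for Gucy2f and Pdc, they were −0.0938 and −0.653, and −0.0362 and −0.554 over all. In 1.5 h replicate 1 they were 0.46 and 0.231, and 0.258 and 0.324 over all. Those of 9.0 h replicate 1 were −0.0094 and 0.681, and 0.14 and 0.386 over all. Those of 9.0 h replicate 2 were −0.316 and −0.197, and −0.272 and −0.258 over all. The sign for GC content thus differed between libraries of the same time. Gucy2f and Pdc have the lowest GC content of the 10, 42.0% and 37.8%, against 48.2% to 55.9% for the others. With trends of length and GC removed from each library, an alternative chosen after seeing the data, Gucy2f had a log2 fold change of −0.51 (limma adjusted p = 0.0667), Pdc −0.16 and Gucy2e −0.04. Grk1 and Rgs9 also lay closer to no change than before, at −0.168 and −0.334. Guca1a, Gnb5, Sag, Guca1b and Rcvrn lay farther from it, at −0.379, −0.268, −0.188, −0.178 and −0.161. The median of the 10 genes was −0.183. The ratio of Gucy2f to Gucy2e then separated the times, with a difference of −0.47 (exact permutation p = 0.1, the smallest possible).

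Other photoreceptor genes were also lower at 9.0 h in their median. Of 13 reference genes of photoreceptor identity and structure, such as Rom1 and Prph2 of the outer segment disc rim, 9 had a log2 fold change below 0 and none was called (median −0.20). Rom1 had 0.33 and Prph2 −0.09. Of 9 genes of the rod activation cascade, 7 were below 0 and none was called (median −0.24). Gnat1 had −0.36. The mean deviation of the reference genes was 0.101, 0.095 and 0.043 in the 3 libraries of 1.5 h and 0, −0.132 and −0.107 in those of 9.0 h, against 0.166, 0.182 and 0.033 and −0.092, −0.225 and −0.064 for the 10 shut-off and feedback genes. Scaled to those reference genes, the median of the 10 was −0.06, and Sag, Rcvrn, Guca1b and Gucy2e turned to 0.05, 0.123, 0.085 and 0.001. That scaling moved the median of all tested genes to 0.156. Gucy2f was still lower, at −0.59 ± 0.13 (limma adjusted p = 0.0949), with no overlap between the times.

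Markers of other eye tissues moved between the libraries as well. The 9 lens genes summed to between 73060 and 110500 RPKM at 1.5 h and between 108400 and 125500 at 9.0 h, with 7 above 0. The 7 muscle genes summed to 695 to 1277 and 1355 to 1534 RPKM, with 6 above 0, and the 8 cornea and sclera genes to 4167 to 6143 and 5091 to 5944, with 6 above 0. Among these lists 1 gene was called, Tcap of the muscle sarcomere (log2 fold change 1.31, limma adjusted p = 0.0224). The 8 bipolar cell genes summed to 239 to 278 RPKM at 1.5 h and 208 to 233 at 9.0 h, with 6 below 0. The 9 tested amacrine and ganglion cell genes went the other way in their median, 0.08, with 6 above 0, and summed to 385 to 427 and 418 to 448 RPKM. Of 5 Mueller glia and 4 tested pigment epithelium genes, 3 each were below 0 (medians −0.06 and −0.22), with sums of 707 to 814 and 751 to 765 RPKM, and of 485 to 860.1 and 570 to 687 RPKM. Of the 5 blood genes, Hba-a1, Hbb-b1 and Hbb-b2 were listed at 0 in all libraries, and Beta-s and Alas2 were tested, with a summed level of 43.7 to 375 RPKM at 1.5 h and 85.5 to 120.2 at 9.0 h. The part of these tissues in the values of the 10 genes was not tested.

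Further genes of recovery and calcium handling, from a list of 19, gave 17 that could be tested. None was called, 10 were below 0 and 7 above (median −0.10). Unc119, a chaperone that carries lipid-modified transducin, was the most abundant at 904 ± 111 and 1052 ± 114 RPKM. Calm2 and Calm3, which encode calmodulin, had log2 fold changes of 0.28 and 0.35. Those lower without overlap were Rgs9bp, Slc24a2, a calcium exchanger, and Cabp4, a calcium-binding protein of the photoreceptor synapse. Over all tested genes the share lower without overlap was 8.41%. Those higher without overlap were Calm3, Arr3 and Prkaca, a catalytic subunit of protein kinase A, against 9.78% of tested genes in that direction. Arr3, cone arrestin, had 39.9 ± 7.71 and 58.9 ± 6.12 RPKM, a log2 fold change of 0.58 ± 0.17 (limma adjusted p = 0.249), where Sag, its rod counterpart, had −0.11. The difference between the 2 genes was not tested. Arr3 was also the only 1 of 10 cone genes above 0, the list having a median of −0.19 with none called. These were singled out after their values were seen. Gucy2d was listed at 0 in 5 of 6 libraries, and Grk4 was at 0.948 RPKM or less.

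Of 11914 tested genes outside all lists with a mean of at least 2 RPKM, those whose profile over the 6 libraries was most like the mean of the 10 standardised profiles were Plin4, a lipid droplet protein (Pearson r = 0.995), BC053749 (0.993), Isyna1, an enzyme of inositol synthesis (0.985), Camk1g, a calcium-dependent kinase (0.985), and Pdlim4 (0.982). For Gucy2f alone, a question added after its values were seen, they were Gria2, a glutamate receptor subunit (0.997), Ikzf2 (0.993), Nfat5, a transcription factor of the osmotic stress response (0.99), Spon2 (0.99) and Slc19a2, a thiamine transporter (0.988). These are descriptions over 6 libraries, picked as the highest of 11914.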

How the data were processed

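RNA of whole eyes was sequenced in 6 libraries, 3 at 1.5 h and 3 at 9.0 h. The authors deposited RPKM values per gene symbol, made with GSNAP and HTSeq on mouse build mm9, per the submitters' processing notes. No label or header used here gives their versions, the annotation, the strand setting or how reads matching in several places were treated. The unit was checked on the values: in genes of 1 transcript length, 68.9% to 71.2% of low values times length lay within 0.1 of a whole read at the best total per library, against 14.0% to 16.1% at other totals, and that total, to 10000 reads, is the depth given. Of 22692 genes, the 13490 that reached 1 RPKM in 3 libraries were tested with limma 3.58.1 in R 4.3.3 (eBayes, trend, robust) on log2(RPKM + 0.1), two-sided, with Benjamini-Hochberg adjustment over all of them. The fold changes understate low genes. The code was tested on simulated data. Ratios used exact permutation of libraries. Transcript length and GC content came from GENCODE M21 (GRCm38), and transcripts of other genes sharing at least 200 nt at 95% identity were sought with minimap2 2.31. That build is not the one of the files and gave no coordinates for them. All 10 genes are named. Members and lists were chosen with earlier results of these data known. Of other lists, the most abundant genes are named unless said otherwise, and some listed genes are not reported here. Alternatives were other pseudocounts, no filter, quantile normalization, scaling to photoreceptor genes, a replicate block, plain eBayes, GC and length correction, and leaving out each library.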

Additional observations from a re-analysis of the deposited data

How the results depend on the processing

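No member was called in any setting other than the replicate block (Gucy2f) and the fit without 1.5 h replicate 1 (2 members, Gucy2f and Pdc). The fit without 1.5 h replicate 1 called 1219 genes in all. The count of all called genes, 30, was 15 after quantile normalization, 53 scaled to photoreceptor genes, 101 with GC and length trends removed, and 2 to 1219 when 1 library was left out. The median of the members, −0.225, was −0.388 after quantile normalization and −0.065 scaled to photoreceptor genes, and −0.268 to −0.152 when 1 library was left out. Between 0 and 2 members were called when 1 library was left out. Scaled to photoreceptor genes, Sag, Rcvrn, Guca1b and Gucy2e reversed to 0.05, 0.123, 0.085 and 0.001. With 1 library left out, Gucy2e ranged from −0.346 to 0.061, Rcvrn from −0.084 to 0.048 and Guca1b from −0.167 to 0.04. The number of pairs whose ratio separated the times, 0, was 1 with GC and length trends removed and 0 to 1 when 1 library was left out. The pair was Gucy2f to Gucy2e with those trends removed and without 1.5 h replicate 1 or 9.0 h replicate 2, Rcvrn to Grk1 without 1.5 h replicate 2, and Guca1b to Guca1a without 1.5 h replicate 3. With those trends removed, Grk1 to Sag and Pdc to Sag reversed to 0.02 and 0.024. Without 1 library, Rgs9 to Gnb5 ranged from −0.334 to 0.1 and Grk1 to Sag from −0.345 to 0.047. The cause of these shifts was not tested.

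With the replicate number as a block, 141 genes and 1 member were called, Gucy2f at limma adjusted p = 0.023. The labels do not say that equal numbers share mice or a day, so the numbers were not taken as pairs. Deviations from the group means correlated with r = 0.347, 0.484 and −0.215 for numbers 1, 2 and 3. Of the 6 libraries, 4 correlated best with their own number, and these values do not settle whether equal numbers were pairs. At the depth of these libraries the lowest member, Gucy2f, had an estimated 970 reads or more in each.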
